A study of Homo sapiens with 4 samples.

Results

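The inhibitor of DNA binding (ID) gene family comprises ID1, ID2, ID3 and ID4, and the 4 genes were taken by name from 20033 protein-coding genes. ID proteins carry a helix-loop-helix domain without the adjoining basic region that contacts DNA. They pair with the E proteins (TCF3, TCF4 and TCF12) and thereby keep basic helix-loop-helix (bHLH) factors off their sites, and they are known for holding back differentiation and sustaining proliferation, also in carcinoma cells. Their genes are short and quickly induced, among others by bone morphogenetic proteins (BMPs), whose receptors act through the SMAD factors.

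RNA polymerase II (Pol II) occupancy was profiled by chromatin immunoprecipitation and sequencing (ChIP-seq) in SK-OV-3, a line established from a human ovarian adenocarcinoma, to ask how RRN3, which recruits RNA polymerase I to the rRNA genes, influenced Pol II transcription. The 2 groups were SK-OV-3 cells silenced for RRN3 by a short hairpin RNA (shRRN3) and SK-OV-3 cells whose hairpin targeted LacZ, a bacterial gene that human cells lack (shLacZ), and each was represented by 1 list of Pol II peaks. Antibody and kit were the same in both groups. Input libraries were not used here. With 1 library per hairpin there was no spread between replicates, no test was made, and every difference below compares 2 libraries, in which enrichment, depth and the hairpin cannot be told apart.

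The shLacZ list held 4014 peaks with a median width of 304 bp, and the shRRN3 list held 14363 peaks with a median width of 432 bp. The score of a peak was the authors' own. Whether its scale is comparable between libraries is not known, so scores printed side by side are each list's own values and no difference is read from them. A peak list carries no read counts, so the depth behind it is unknown, and it does not separate polymerase in more cells from more polymerase per cell. RRN3 itself and the 10 kb on either side of it held 0 covered bases in both lists. Pol II peaks do not measure RRN3 mRNA or protein, so the knockdown could not be checked here. Of 7 genes fixed as markers of this line, PAX8 had a peak over its start in both lists and KRT8 and KRT18 in shRRN3 alone, while ERBB2, KRT7, KRT19 and MECOM had none. Of 9 markers of blood, endothelium, fibroblasts, liver and heart muscle, 0 had a peak over the start in either list.

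The ID promoters are shown first because the start peaks of ID1, ID2 and ID4 lie over part or all of them, and that of ID3 for comparison. RefSeq promoter sequences (GRCh38.p14), from 250 bases before to 50 bases after the start, were found for all 4 genes and for 15345 protein-coding genes in all. The letters TATAA, read on the gene's strand with their first base 40 to 20 bases before the start, were held by 3 of the 4 ID promoters and by 5.73% of all promoters. ID2 lacked them and had ATAAA in their place. In the following stretches of 30 bases these letters are in capitals, 5′ to 3′ on the strand of each gene:
ID1 (chr20:31605246-31605275, plus strand): ccgtggcgtgttTATAAaagacaagctgtg
ID2 (chr2:8682014-8682043, plus strand): cggcgagtgcggATAAAagccgccccgccg
ID3 (chr1:23559513-23559542, minus strand): ccaggcaggctcTATAAgtgaccgccgcgg
ID4 (chr6:19837329-19837358, plus strand): ggcgcacggctcTATAAatacagctgcgcg
The first capital lay 31 bases before the start in ID1, 30 in ID2, 29 in ID3 and 29 in ID4.

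The CCAAT box was searched in these promoter sequences only, so a copy farther out would be missed. Most promoters lacked it, as that of ID3 did. CCAAT, searched on both strands, was found in the promoters of ID1, ID2 and ID4 and in 36.6% of all promoters, but not in the ID3 promoter. In ID1, ID2 and ID4 a copy in reverse orientation was followed by the same letters, giving ATTGGCTG, a word held by 5.08% of all promoters on either strand and chosen after the sequences were seen. Capitals mark the CCAAT box in reverse orientation:
ID1 (chr20:31605193-31605222, plus strand): cccatgccgcccATTGGctgcttttgaacg
ID2 (chr2:8681872-8681901, plus strand): caccccgcggggATTGGctgcgaacgcgga
ID4 (chr6:19837138-19837167, plus strand): actgcccgcctgATTGGctggccactccag
These boxes lay 84, 172 and 220 bases before the start. ID2 also held CCAAT in forward orientation 122 and 78 bases before its start. The GC share of the promoter was 62.7% in ID1, 69.0% in ID2, 59.7% in ID3 and 76.3% in ID4, against a median of 63.0% over all promoters. A match is a description of the letters and does not show a bound site.

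Pol II peaks lay over the start of ID1, ID2 and ID4 in both lists, and ID3 had none. A peak was counted at the start when it overlapped the 500 bp on either side of the start of the canonical transcript. By this measure 3 of the 4 ID genes had a start peak in shLacZ and 3 of 4 in shRRN3. Over all protein-coding genes the share was 7.97% in shLacZ (95% interval 7.60% to 8.35%) and 24.9% in shRRN3 (24.3% to 25.5%), where the exact Clopper-Pearson intervals cover counting error only. A start peak in both lists was found at 6.81% of genes. A peak anywhere in the gene or the 10 kb on either side was found at 16.3% of genes in shLacZ and 42.3% in shRRN3, and at 3 of the 4 ID genes in both. The family was selected on the score and width of the ID1 peaks, which were already known, so these counts describe the members and nothing more is read from them.

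**Figure D1:**
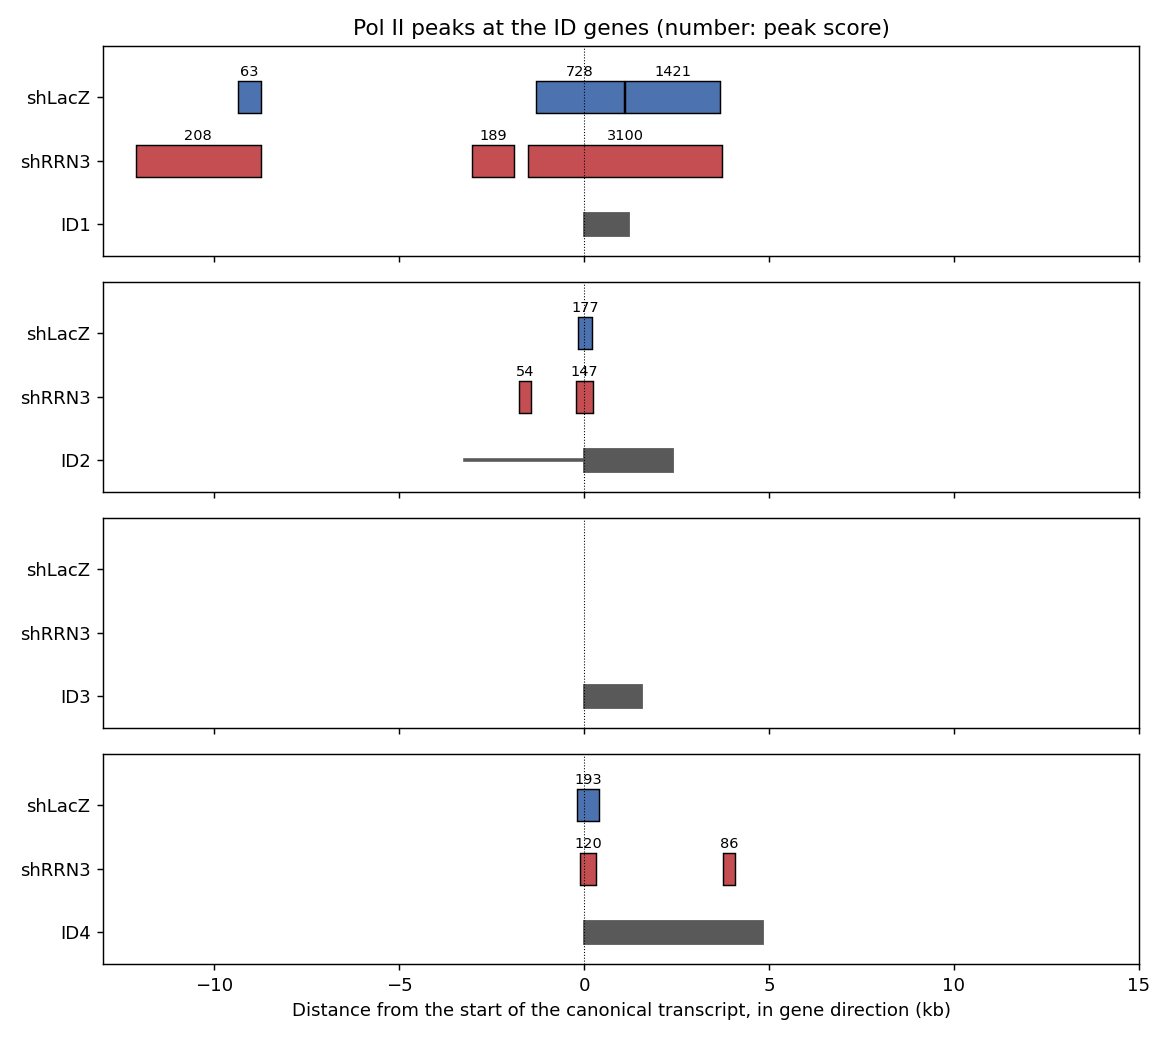
Pol II peaks within each ID gene and 10 kb around it, by distance from the start of the canonical transcript in kb, with shLacZ peaks in blue, shRRN3 peaks in red and the transcript in grey (the thin line at ID2 is the rest of its annotated span). Numbers are peak scores; ID1 is covered from before its start to past its end but for a gap of 17 bp in shLacZ, ID2 and ID4 carry narrow start peaks, and ID3 carries none.

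ID1, the best-known member of the family in carcinoma, was covered by Pol II peaks from before its start to far past its end in both lists, save for 17 bp in shLacZ. Its canonical transcript spans 1222 bp on the plus strand of chromosome 20 (31605289 to 31606510). In shLacZ it was covered by 2 peaks. The first ran from 31603978 to 31606369 with a width of 2392 bp and a score of 728, which ranked 32 among 4014 peaks. The second ran from 31606387 to 31608971 with a width of 2585 bp and a score of 1421, which ranked 11. In shRRN3 there was 1 peak from 31603762 to 31609028, 5267 bp wide, with the ceiling score of 3100 that 4 peaks of that list share. The shLacZ library thus had its higher score on the part past the gene, and the shRRN3 list did not divide the region.

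The outer edges of ID1 coverage were nearly the same in the lists. The shLacZ peaks were parted by a gap of 17 bp in the 3′ UTR, 141 to 124 bp before the end of the transcript. Counted from first to last base they spanned 4994 bp. The left edge lay 1311 bp before the start in shLacZ and 1527 bp before it in shRRN3. The right edge lay 2461 bp past the end in shLacZ and 2518 bp past it in shRRN3, a difference of 57 bp. Gaps of at most 100 bp parted 5.08% of neighbouring peaks in shLacZ and 4.62% in shRRN3, so such divisions were found in both lists.

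Cover past the gene end is given here as a description, since the family was chosen for the wide ID1 peaks. Covered bases in the 10 kb past the end were found at 4.13% of genes in shLacZ and 12.6% in shRRN3, and of the ID genes at ID1. A cover of at least 2 kb there, a limit set after the values were seen, was found at 0.0899% of genes in shLacZ and 0.978% in shRRN3. More covered bases past the end than at ID1 were counted at 10 genes in shLacZ and at 124 in shRRN3. The start window and body were covered to at least 95%, with at least 2 kb past the end, at 2 genes in each list (0.00998% in both), which were ID1 and HCFC1R1. Both limits lie below the ID1 values, such as its body cover of 97.6% in shLacZ, so nothing is read from this rarity. The body of ID1 is only 722 bp, and a longer body needs more covered bases to reach this share. No share among genes of like length is given here.

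Upstream of ID1 the lists differed more than at the outer edges of the ID1 cover. At 9359 to 8726 bp before the start, shLacZ had a peak from 31595930 to 31596562 with a score of 63.5, which ranked 2216. In shRRN3 a peak from 31593173 to 31596545 overlapped it, and this peak was 3373 bp wide with a score of 208, ranking 820 by score and 25 by width among 14363 peaks. A further peak from 31602251 to 31603405, with a score of 189 and a rank of 1030, was found in shRRN3 and had no shLacZ peak over it. Among all shRRN3 peaks on the primary chromosomes, 16.9% had a shLacZ peak over them. Upstream of the start window, 15.2% of 9500 bases were covered in shLacZ and 36.2% in shRRN3. No annotated gene lies under these upstream peaks. The next peaks outside the 10 kb window were 27382 bp before the gene in shLacZ and 30690 bp before it in shRRN3, both in HM13.

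Other annotated RNAs share the ID1 peaks. The noncoding gene ENSG00000289875 starts 163 bp from the ID1 start on the opposite strand (31604359 to 31605126), and the microRNA gene MIR3193 lies 675 bp past the ID1 end (31607186 to 31607240). ChIP-seq does not read strand, so polymerase on ID1 and on these neighbours cannot be told apart. The next protein-coding gene past ID1 is outside the 10 kb window, and the nearest peak beyond the covered stretch was 97926 bp past the gene in shLacZ and 81990 bp in shRRN3.

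The ID1 region also held the letters GGCGCC, the palindrome known from BMP response elements that SMAD factors bind. In the region from 2000 bp before to 500 bp after the start, ID1 had 2 copies, ID2 had 1, ID3 had 0 and ID4 had 2, while 62.1% of 20033 genes had at least 1. The copy 965 bases before the ID1 start was covered by a peak in both lists. No peak covered the upstream copies of ID2, 408 bases before its start, and ID4, 508 bases before its start. The ID1 peaks reach 1311 bp before the start in shLacZ and 1527 bp in shRRN3, and the family was chosen for their width. Any letters there would be covered, so nothing about SMAD factors is read from this difference. Capitals mark GGCGCC:
ID1 (chr20:31604312-31604341, plus strand): gaccgcccgcgcGGCGCCagcctgacagtc
ID2 (chr2:8681636-8681665, plus strand): aatgcatatttaGGCGCCcagggtctgccc
ID4 (chr6:19836850-19836879, plus strand): ggagggtccctgGGCGCCgtgctattagga
The second copies of ID1 and ID4 lay 240 and 423 bases after the start, under a peak of both lists at ID1 and under none at ID4.

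ID2, a partner of the E proteins with a broad role in lymphoid and neural development, had Pol II at its start and no covered bases in its body or past its end. The canonical transcript spans 2406 bp on the plus strand of chromosome 2 (8682056 to 8684461). The shLacZ start peak ran from 8681891 to 8682272, was 382 bp wide and had a score of 177, rank 300 of 4014. The shRRN3 start peak ran from 8681825 to 8682303, was 479 bp wide and had a score of 147, rank 1890 of 14363. The shLacZ peak lay wholly inside the shRRN3 peak, which was 1.25 times as wide. Of the start window 38.2% was covered in shLacZ and 47.9% in shRRN3.

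A weak upstream peak at ID2 was listed in shRRN3 alone. It ran from 8680297 to 8680614, with a score of 54.2 near the lowest score listed in shRRN3, 50, and it was lost when shRRN3 was reduced to its 3920 peaks of highest score, as many as shLacZ held on the primary chromosomes. It lay 1759 to 1441 bp before the start of the canonical transcript but inside the annotated span of ID2, which begins at 8678845 with a longer transcript, and inside the antisense gene ID2-AS1. ID2-AS1 starts 192 bp from ID2 on the opposite strand, at 8681864. The shRRN3 start peak overlaps both genes, while the shLacZ start peak begins at 8681891 and overlaps ID2 alone. ChIP-seq does not read strand, so at so short a distance neither start peak can be given to either gene alone. The nearest other peaks were 208831 bp before the gene in shLacZ and 319373 bp past it in shRRN3.

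ID4, the longest of the transcripts here and a gene studied in ovarian and breast cancer, had a start peak in both lists and a peak near its end in shRRN3. The transcript spans 4828 bp on the plus strand of chromosome 6 (19837370 to 19842197). The shLacZ start peak ran from 19837190 to 19837775, was 586 bp wide and had a score of 193, rank 259 of 4014. The shRRN3 start peak ran from 19837259 to 19837694, was 436 bp wide and had a score of 120.1, rank 2844 of 14363. It lay wholly inside the shLacZ peak, so that ID4, unlike ID2, had the narrower start peak in shRRN3. Of the start window 58.6% was covered in shLacZ and 43.6% in shRRN3.

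The ID4 peak found in shRRN3 alone ran from 19841133 to 19841462, with a width of 330 bp and a score of 85.9 at rank 5593. It too was lost in the reduced shRRN3 list of 3920 peaks, where the cover of the ID4 body was 0. It lay in the 3′ UTR, 1065 to 735 bp before the end of the transcript, in sequence with a GC share of 34.2%, against 69.95% in the shRRN3 start peak. It covered 7.62% of the ID4 body. Body cover of any extent was found at 4.96% of genes in shLacZ and 18.3% in shRRN3, and of the ID genes at ID1 in both lists and at ID4 in shRRN3. Body cover in shRRN3 alone was found at 32.7% of the 1365 genes with a start peak in both lists. The antisense noncoding gene LNC-LBCS starts inside ID4 and overlaps the start peaks in both lists. Past the end of ID4 there were 0 covered bases in 10 kb in either list. The nearest other peaks were 969013 bp past the gene in shLacZ, in CDKAL1, and 32396 bp before it in shRRN3, in LNC-LBCS.

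ID3, which is co-expressed with ID1 in many tissues and induced by the same ligands, had no peak between 10 kb before and 10 kb past the gene in both lists. Its transcript spans 1576 bp on the minus strand of chromosome 1 (23557926 to 23559501). The noncoding gene ENSG00000235052, 7010 bp past its end on the same strand, had none either. The nearest shRRN3 peaks were 132229 bp before the gene, at RPL11, and 388909 bp past it. In shLacZ the nearest peaks were 240020 bp before the gene and 360629 bp past it. The gene thus lay in a wide stretch without peaks in each list. Of 19 other protein-coding genes within 500 kb, 3 had a start peak in shLacZ and 10 in shRRN3, all outside that stretch. Over all protein-coding genes the shares were 7.97% and 24.9%. A window without a peak of shLacZ or shRRN3 was the case for 56.3% of protein-coding genes. A missing peak says that Pol II did not pass the authors' threshold and does not show that it is absent.

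**Figure D2:**
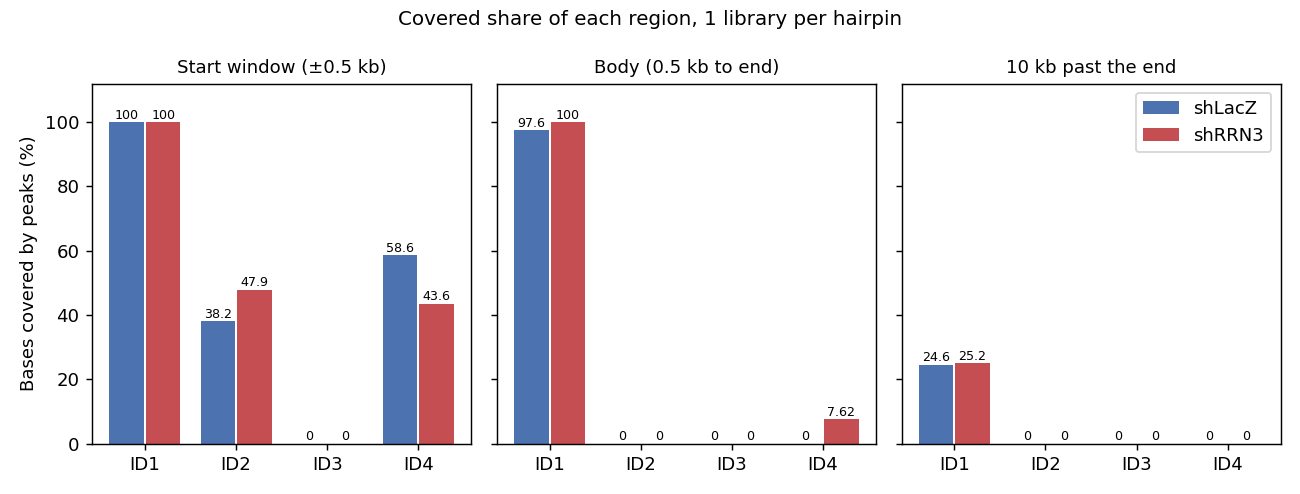
Share of bases covered by peaks (percent) in the start window, the body and the 10 kb past the end of each ID gene, shLacZ in blue and shRRN3 in red, 1 library each without error bars. The start window of ID1 is covered in full, its body to 97.6% in shLacZ and in full in shRRN3, and the 10 kb past its end to 24.6% and 25.2%, where the other members are at 0.

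The windows of ID1, ID2 and ID4 held more covered bases in shRRN3 than in shLacZ, and at ID4 the order depended on the length of the shRRN3 list. In the gene and 10 kb around it, covered bases in shLacZ and shRRN3 were 5610 and 7685 at ID1, a ratio of 1.37. They were 382 and 797 at ID2, a ratio of 2.09, and 586 and 766 at ID4, a ratio of 1.31. Together the 4 windows held 6578 covered bases in 5 shLacZ peaks and 9248 in 7 shRRN3 peaks, a ratio of 1.41. Summed over all protein-coding genes, with bases near several genes counted at each, the ratio was 5.08, and its median among genes with a start peak in both lists was 2.14. Such genes had more covered bases in shRRN3 in 92.1% of cases, and all 3 ID genes with peaks were among them. In the reduced shRRN3 list of 3920 peaks, ID4 held 436 covered bases against 586 in shLacZ, so that its direction turned, while ID1 stayed at 7685 and ID2 fell to 479. Both lists then had 5 peaks at the ID genes, and 88.1% of the 914 genes with a start peak in both had more covered bases in shRRN3.

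The start peaks of the members stood at different places in the lists. The percentile of the score within its list was 99.2 in shLacZ and 99.97 in shRRN3 at ID1, 92.5 and 86.8 at ID2, and 93.5 and 80.2 at ID4. Over the genes with a start peak in both lists, the median percentile was 60.2 in shLacZ and 84.1 in shRRN3. The lists differ in length and content, so a percentile in one is not set against that in the other. The width ratio of shRRN3 to shLacZ was 1.25 at ID2 and 0.744 at ID4, beside a median of 1.43. At ID1 the ratio was 2.20 against the first of the shLacZ peaks alone, but 1.05 when peaks at most 100 bp apart were joined, a choice made after seeing the data that left ID2 and ID4 as they were and gave a median of 1.46. A narrower start peak in shRRN3 was found at 17.4% of these genes, ID4 included.

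**Figure D3:**
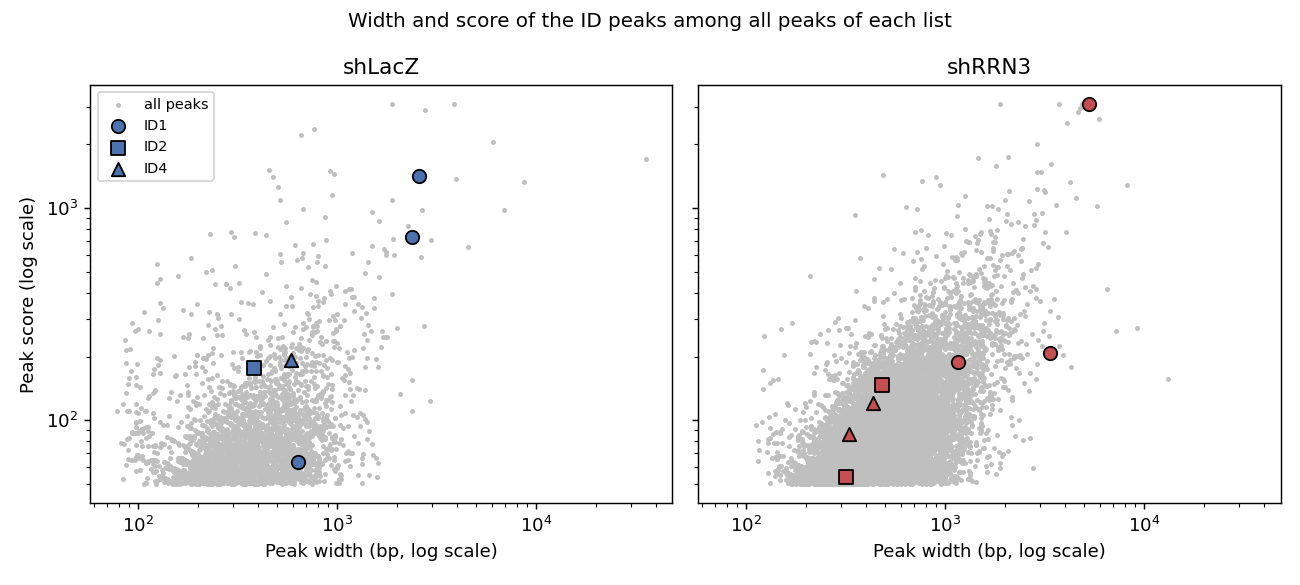
Peak width in bp against peak score, both on log scales, for all peaks of each list (grey) and the peaks in and around ID1 (circles), ID2 (squares) and ID4 (triangles). The ID1 peaks over the gene sit at the upper right in both lists, at scores of 728 and 1421 in shLacZ and 3100 in shRRN3.

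Each of the 5 shLacZ peaks at the ID genes had a shRRN3 peak over it, and 4 of the 7 shRRN3 peaks had a shLacZ peak over them. Such a counterpart was found for 66.2% of the 3920 peaks that shLacZ held on the primary chromosomes, and for 16.9% of the 14322 in shRRN3. When 50% of both peaks had to be shared, the matches at the ID genes were 2 and 2, the start peaks of ID2 and ID4, beside 38.6% and 10.6% of all peaks. The shLacZ peaks over ID1, 2392 and 2585 bp wide, lay wholly inside the shRRN3 peak of 5267 bp. Parted by their gap of 17 bp, each filled less than 50% of that peak, so the division in shLacZ kept ID1 from matching. The 3 shRRN3 peaks without a counterpart were the nearer upstream peak of ID1, the peak upstream of ID2 and that in the 3′ UTR of ID4, at scores of 189, 54.2 and 85.9. None of them lay in a start window.

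The genes whose cover was most like that of each member were found by Euclidean distance over 6 values, the percent covered in start window, body and 10 kb past the end in both lists. Nearest to ID1 was HCFC1R1, at a distance of 2.63, followed by S100A6 at 27.5 and TNFRSF12A at 29.9. HCFC1R1 and TNFRSF12A are neighbours and share peaks in both lists, so they are not separate examples. Nearest to ID2 were RNF8 at 0.943, GOSR1 at 1.10 and PXT1 at 1.44. Nearest to ID4 were AKIRIN2 at 6.42, R3HDM2 at 7.13 and CEBPB at 7.70.

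The genes upstream and downstream of the ID proteins were examined from lists chosen with earlier results of these data known. Among the 62 genes, some of which stand in more than 1 list, 3 had a start peak in shLacZ and 12 in shRRN3, or 4.84% and 19.4%, beside the 7.97% and 24.9% of all protein-coding genes. The 7 BMP ligands (BMP2, BMP4, BMP5, BMP6, BMP7, BMP10 and GDF2) had 0 in either list. Of 8 receptors, BMPR1A had a start peak in both lists, with scores of 53.4 and 81.1, and ACVR1 and the type II receptor BMPR2 had one in shRRN3 alone, with scores of 58.3 and 90.3. Of 7 antagonists, the pseudoreceptor BAMBI had one in both lists, with scores of 61.0 and 77.4.

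Among the transmitters and targets of the pathway, start peaks were more frequent in shRRN3, as over all protein-coding genes (7.97% and 24.9%). Of 6 SMAD factors, of which 0% had a start peak in shLacZ and 33.3% in shRRN3, SMAD4, the common partner, and SMAD6, an inhibitory SMAD, had one in shRRN3 alone, with scores of 69.0 and 118.9. SMAD1, SMAD5 and SMAD9, which carry the BMP signal, had none. Of 10 other BMP target genes, HES1 and BAMBI had one in both lists, and MSX1, MSX2 and SMAD6 in shRRN3 alone, which makes 2 and 5 of 10. HES1, itself a bHLH repressor, had scores of 119.2 and 120.2.

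The E proteins, the bHLH factors and the cell cycle inhibitors had 0 start peaks in shLacZ, where the share of all protein-coding genes was 7.97%, and 1 in each of these groups in shRRN3, where it was 24.9%. Of the 3 E proteins, TCF12 had one in shRRN3 alone, with a score of 62.3, and TCF3 and TCF4 had none, so that the share in shRRN3 was 33.3%. Of 18 tissue-specific bHLH factors, TWIST1, a factor of mesenchymal cells, had one in shRRN3 alone, with a score of 64.4, a share of 5.56%. Of 6 cell cycle inhibitors, some of which E proteins can activate, CDKN1B had one in shRRN3 alone, with a score of 50.8 near the lowest listed, a share of 16.7%.

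**Figure D4:**
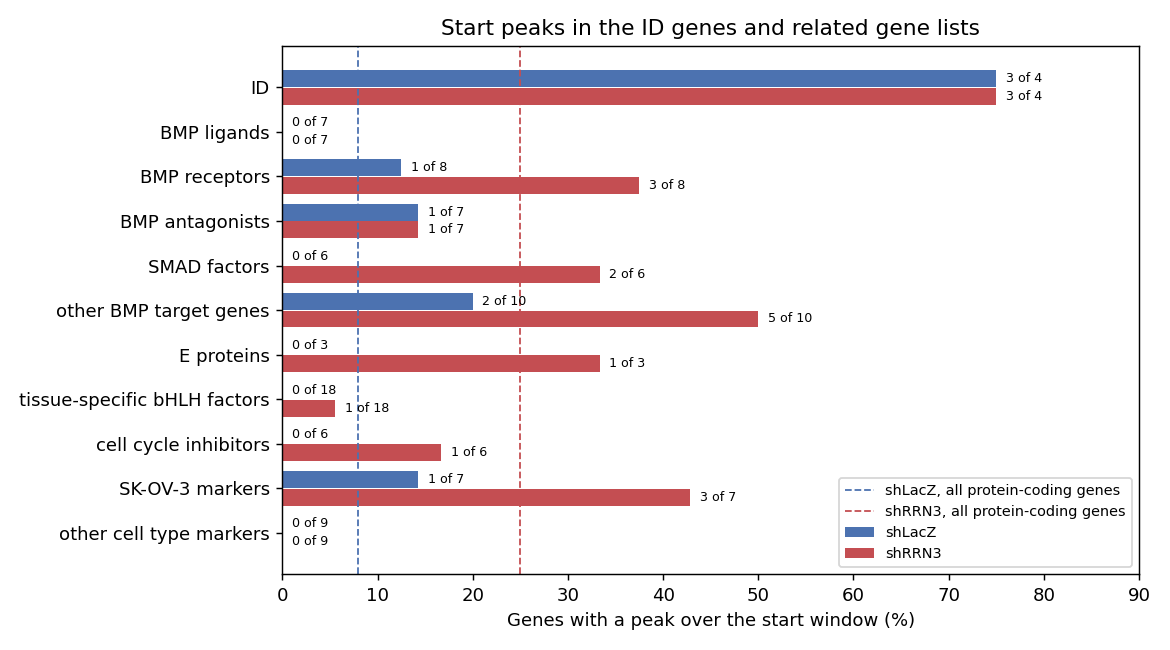
Percent of genes with a Pol II peak over the start window in each gene list, shLacZ in blue and shRRN3 in red, with the counts printed and the share of all protein-coding genes as dashed lines (7.97% and 24.9%). The ID genes stand at 3 of 4 in both lists, and the BMP ligands at 0 of 7.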

How the data were processed

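Pol II ChIP-seq was performed by the authors on SK-OV-3 cells with the ChIP-IT Express kit and sequenced on a BGISEQ-500 platform. The deposited files hold a score, a start and an end per peak, called by the authors in each library on its own. Peak names carry MACS. Its version and threshold, the aligner, duplicate handling and the use of the input are not given in the sources used here. The build is hg38 per the labels. From its range, the deposited score appears to be 10 times −log10(p), with a minimum near 50 and a ceiling of 3100. A file start was read as 0-based.

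Genes came from GENCODE release 44. The canonical transcript gave start window (500 bp on each side), body (from there to the end) and 10 kb past the end, and the annotated span gave the 10 kb window. Overlap was at least 1 bp. The members and gene lists were chosen with earlier results of these data known. Named were the members, list genes with a start peak, genes within 10 kb of a member and the 3 genes most like it. Named outside this rule, with their values seen, were RRN3, markers and list genes without a start peak, and genes at the nearest outside peak. Interval code was tested on simulated peaks and against bedtools 2.31.1. Tables were made with pandas 2.3.3 and numpy 2.4.6 under Python 3.11.15, intervals with scipy 1.17.1 and figures with matplotlib 3.10.9.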

Additional observations from a re-analysis of the deposited data

How the results depend on the processing

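Of 117 values under alternatives for 33 results, 96 stayed within 1.5 times of a count or within the counting interval of a share, 20 moved beyond that and 1 changed direction. Only the differences in covered bases and the width ratios could change direction, the rest being counts and shares. The one that did was shRRN3 minus shLacZ at ID4, which was -150 bases in the reduced shRRN3 list against 180 with all peaks; at ID2 it was 97 bases there and at a score of at least 66.05. With peaks at most 100 bp apart joined, the width ratio of ID1 was 1.05. The count of ID genes with a start peak stayed at 3 in both lists, except that shRRN3 fell to 2 when the midpoint had to lie in the window, because the ID1 midpoint lies 1106 bp past the start, and both lists fell to 2 with whole gene spans, where ID2 begins at its longer transcript. With whole spans the body cover of ID2 was 382 bases in shLacZ and 797 in shRRN3. When shRRN3 kept only the 3920 peaks of highest score, the body cover of ID4 was 0. When 50% of both peaks had to be shared, 2 shLacZ and 2 shRRN3 peaks were matched. The share of protein-coding genes with a start peak in shLacZ was 4.61% at a score of at least 66.05, 7.55% with a window of 250 bp on each side, 7.57% by midpoints, 7.21% with whole spans and 7.29% among genes of at most 6 kb. In shRRN3 the share was 18.8% at that score, 10.5% in the reduced list, 24.0% with 250 bp, 26.0% with 1000 bp, 23.4% by midpoints, 23.0% with whole spans and 17.5% among short genes. No paired analysis was possible because each hairpin had 1 library. The read depth behind both lists is unknown.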

Other observations

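Promoter words found in the ID genes were set against start peaks over all 15345 RefSeq promoters. Promoters with TATAA near the start had a start peak in 11.8% of cases in shLacZ, against 8.27% of those without it, but in shRRN3 the order was turned, with 18.8% against 27.0%. Of the promoters with CCAAT, 9.20% had a start peak in shLacZ and 28.9% in shRRN3, against 8.05% and 25.2% of those without it. Both words together were held by 2.40% of promoters, among them those of ID1 and ID4. These shares are descriptions of 2 lists of unequal length and were not tested.

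RUNX2, a BMP target and bone factor, and MECOM had covered bases without a start peak, and were picked after their values were seen. In the gene and 10 kb around it, RUNX2 had 1167 covered bases in shLacZ and 4769 in shRRN3, and MECOM had 1496 and 8844. These sums run over the whole gene, so they can grow with its length. Summed over all protein-coding genes, the ratio of shRRN3 to shLacZ was 5.08.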
